A study of Mus musculus with 6 samples.

Results

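Gmpr and Hddc2 are the 2 genes of nucleotide metabolism among the 99 genes analysed here from B16F10 cells, a mouse melanoma line. They were taken by gene name and were chosen by the measured FPKM and counts, because both were lower after treatment. Their difference between treated and untreated cells is therefore given as a description, with no test. The study sequenced poly(A) RNA from 3 libraries of untreated cells and from 3 libraries of cells given MTyr-OANPs for 48 h, a treatment known here only by the submitters' code. All 6 libraries came from wild-type B16F10 cells grown in RPMI 1640 with fetal bovine serum and penicillin-streptomycin, and the labels describe no vehicle-only group. Replicates are called biological in the series' text, which does not describe how cultures were separated, so errors measure the spread between these libraries.

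Cells hold purine nucleotides in an adenine and a guanine branch that meet at inosine monophosphate. Gmpr encodes GMP reductase, the NADPH-dependent enzyme that turns guanosine monophosphate back into inosine monophosphate and so draws on the guanine pool. In human melanoma cells GMPR is known to lower GTP and to restrain invasion, and the pigment cell transcription factor MITF is known to act on its expression. Hddc2 encodes a small metal-dependent phosphatase of the HD domain family, which removes phosphate from deoxynucleoside monophosphates. That activity is best described for its bacterial relative in Escherichia coli.

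Both genes lie on the forward strand, Gmpr (ENSMUSG00000000253) on chromosome 13 at 45507444 to 45553800 and Hddc2 (ENSMUSG00000000295) on chromosome 10 at 31313383 to 31328204 (GRCm38). The sequences before the 2 starts are shown as a description. Both genes were chosen because they fell, so their shared direction is not a result, and a shared cause was not tested. The sequences were taken from RefSeq promoter windows on GRCm38.p6, which begin 250 bases before the RefSeq start. The Hddc2 sequence stops where the first annotated exon begins and has 228 bases. Capitals mark GGGCGG, the GC box, the letters that Sp1-type factors are known to bind.
Gmpr, chr13:45507194-45507443, forward strand: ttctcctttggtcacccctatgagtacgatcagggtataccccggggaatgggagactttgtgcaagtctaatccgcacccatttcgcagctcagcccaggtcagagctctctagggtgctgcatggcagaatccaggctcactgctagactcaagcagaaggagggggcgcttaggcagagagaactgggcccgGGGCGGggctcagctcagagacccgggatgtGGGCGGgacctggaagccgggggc
Hddc2, chr10:31313155-31313382, forward strand: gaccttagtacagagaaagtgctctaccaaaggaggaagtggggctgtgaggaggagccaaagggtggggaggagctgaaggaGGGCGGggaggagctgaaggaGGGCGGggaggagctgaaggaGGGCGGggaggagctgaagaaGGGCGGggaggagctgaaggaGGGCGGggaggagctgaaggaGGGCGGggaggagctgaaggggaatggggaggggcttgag

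The Gmpr window held 2 GC boxes, both close to the start. The Hddc2 window held 7 in its 250 bases, counted on both strands. The 6 in capitals stand in a tandem repeat with a period of 21 bases, and the other reaches beyond the printed part. The repeat unit ggggaggagctgaaggagggc occurred 5 times without a mismatch, and 71.6% of bases in the window matched the base 21 positions further on. Of 32851 RefSeq windows of this length, 32.7% held at least 1 GC box on either strand. At least 2 were found in 16.7% of windows and at least 7 in 0.411%. Neither gene had the letters CANNTG, the general E-box, on either strand in its 250 bases, although 66.2% of windows held them. The E-box forms CACGTG and CATGTG, which are contained in that pattern and are letters MITF is known to bind, were likewise not in either window. They occurred in 6.02% and 12.3% of all windows. TATAAA was absent from both windows and present in 12.4% of all windows. GC content was 61.2% before Gmpr and 64% before Hddc2, against a median of 52.4% over all windows. These counts describe letters in a window and say nothing of the factors bound there. Only 1 window per gene was searched. Another coding transcript of Gmpr is annotated to begin 6396 bases after the gene's first base, and the sequence before it was not searched.

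Gmpr was 10.3-fold lower after MTyr-OANPs. By mean deposited FPKM in untreated cells it stood at place 8 of the 53 genes analysed here with a mean of at least 1 FPKM. In untreated libraries 1, 2 and 3 its level was 56.5, 63.1 and 60.4 FPKM (fragments per kilobase of exon, scaled to the depth of the library by the authors). In treated libraries 1, 2 and 3 it was 5.59, 6.12 and 5.69 FPKM. Every treated library was below every untreated one, and the closest libraries of the 2 groups differed 9.22-fold. The group means were 60.0 ± 3.36 FPKM untreated and 5.80 ± 0.284 FPKM treated (SD, n = 3 each), so 9.67% of the untreated level was left. The log2 ratio of the means was -3.37 (SE 0.06). Behind these values stood 10929, 11299 and 11153 counts in the untreated libraries and 876, 1210 and 1129 counts in the treated ones. Mean counts before any scaling differed 10.4-fold, close to the 10.3-fold difference in FPKM.

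Hddc2 was 2.48-fold lower after MTyr-OANPs, from a lower untreated level than that of Gmpr. Its level was 11.3, 11.6 and 12.1 FPKM in untreated libraries 1, 2 and 3. It was 4.20, 5.09 and 4.84 FPKM in treated libraries 1, 2 and 3. The groups again did not overlap, and the closest libraries differed 2.22-fold. The means were 11.7 ± 0.396 FPKM untreated and 4.71 ± 0.458 FPKM treated (SD, n = 3 each), which leaves 40.4% of the untreated level. The log2 ratio was -1.31 (SE 0.09). Counts were 3313, 3129 and 3374 in the untreated libraries and 996, 1520 and 1448 in the treated ones.

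**Figure D1:**
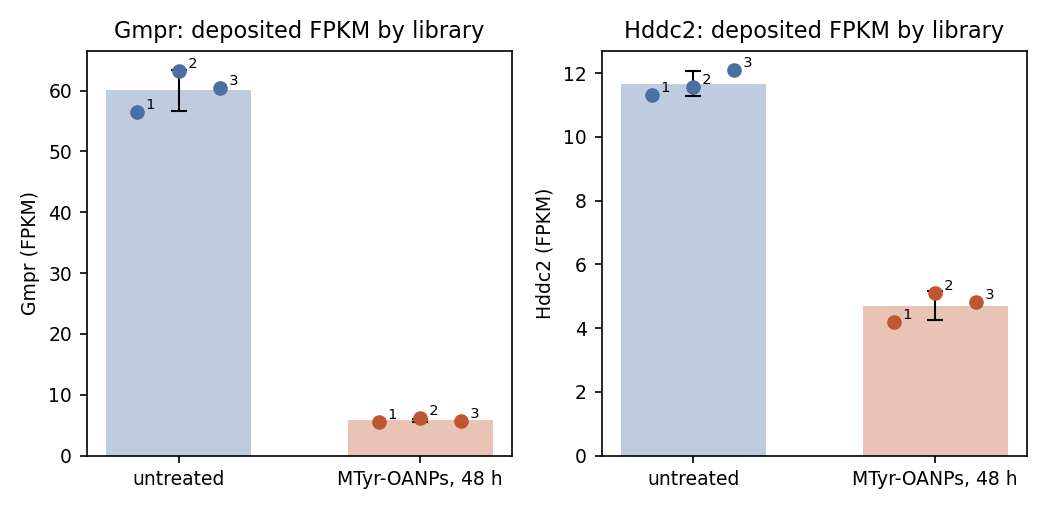
Deposited FPKM of Gmpr and Hddc2 (vertical axes, from 0) in untreated and treated libraries. Points are libraries with their replicate number, bars are group means and error bars are SD (n = 3); treated Gmpr lies between 5.59 and 6.12 FPKM and untreated Gmpr between 56.5 and 63.1 FPKM.

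In a sequenced culture a lower level in each cell and a smaller share of cells that express the gene cannot be told apart. Most of the genes measured differed between the groups, so a difference by itself does not set Gmpr and Hddc2 apart. Of the 53 genes with a mean of at least 1 FPKM, 44 passed edgeR's quasi-likelihood test at an adjusted p of 0.05, which is 83.0%. Lower after treatment were 24 (45.3%) and higher 20 (37.7%). Under TMM scaling from these 53 genes alone, 20 were lower and 21 higher. At least 2-fold lower were 11 (20.8%), Gmpr and Hddc2 among them by choice. The groups did not overlap in 45 genes (84.9%), and in 24 of them (45.3% of those tested) all treated libraries lay below all untreated ones. The median log2 ratio over the 53 genes was -0.03. In order from the largest decrease, Gmpr stood at place 2, between H19 and Arvcf, and Hddc2 at place 9, between Narf and Slc22a18. Genes below a mean of 1 FPKM over all libraries were not ranked. Tspan32, at 1.21 FPKM untreated and 0.0991 FPKM treated (means, n = 3 each), was among these. By these means it fell further than Gmpr. In limma on log2(FPKM + 1) the log2 fold change was -3.16 for Gmpr and -1.54 for H19, which puts Gmpr before H19.

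**Figure D2:**
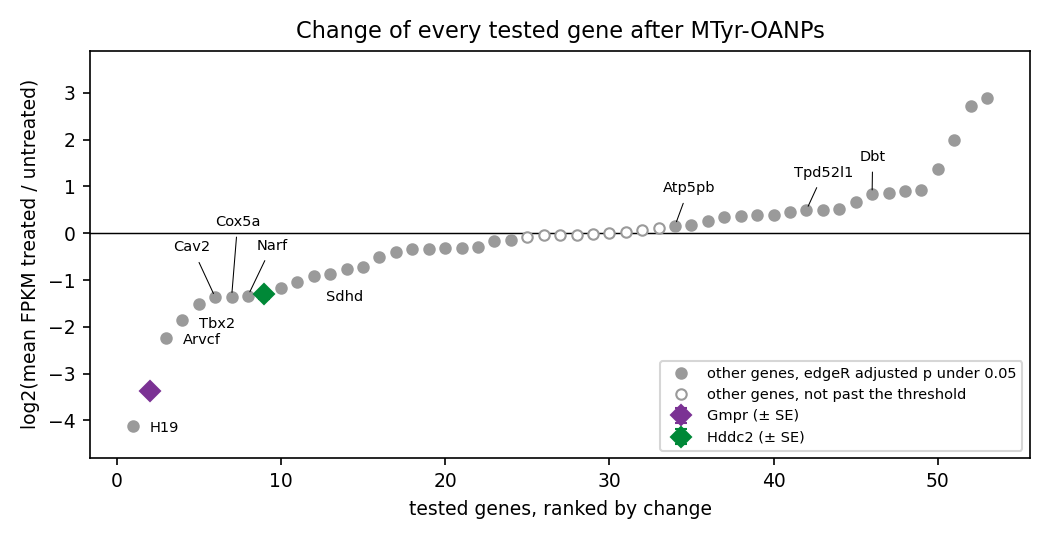
Log2 ratio of mean FPKM, treated over untreated (vertical axis), of the 53 tested genes ranked by that ratio (horizontal axis); diamonds are Gmpr and Hddc2 with SE, filled circles passed edgeR's test and open circles did not. Gmpr at -3.37 lies apart from most genes, and Hddc2 at -1.31 lies among several genes of similar ratio.

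The log2 ratio of Gmpr minus that of Hddc2 was -2.06 (SE 0.07, from the ratio of the 2 genes within libraries), a factor of 4.18 between the 2 decreases. The level of Gmpr was 4.99, 5.46 and 4.99 times that of Hddc2 in untreated libraries 1, 2 and 3, by FPKM. In treated libraries 1, 2 and 3 this ratio of levels was 1.33, 1.20 and 1.18, so it was smaller in every treated library. By their mean FPKM among the 53 tested genes, Gmpr went from place 8 to place 38 and Hddc2 from place 27 to place 42. These ratios and places hold for the deposited FPKM.

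The order of the 2 genes in treated cells, and how far apart they lay, depends on the gene length used. The deposited FPKM divide by the length of all annotated exons together: the length implied by counts and FPKM was 2325 bases for Gmpr and 3512 bases for Hddc2, against 2323 and 3508 bases of exon in GENCODE M21. The longest coding transcript has 1580 bases in 9 exons for Gmpr but only 858 bases in 6 exons for Hddc2. For Hddc2 the exon total is thus 4.09 times the coding transcript, and 3 of its 5 annotated transcripts keep introns. If every count came from the coding transcript, the untreated level would be 88.3 ± 4.94 for Gmpr and 47.7 ± 1.62 for Hddc2, in the unit of FPKM (SD, n = 3 each). The treated level would be 8.54 ± 0.418 for Gmpr and 19.3 ± 1.87 for Hddc2 (SD, n = 3 each). On that length Hddc2 was above Gmpr in all 3 treated libraries, with a ratio of Gmpr to Hddc2 of 0.423 to 0.478, whereas by FPKM it was below. In the untreated libraries the ratio on that length was 1.79 to 1.96. The fold changes of the single genes do not depend on this length. Which transcripts gave the counts was not tested, since the values are per gene.

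**Figure D3:**
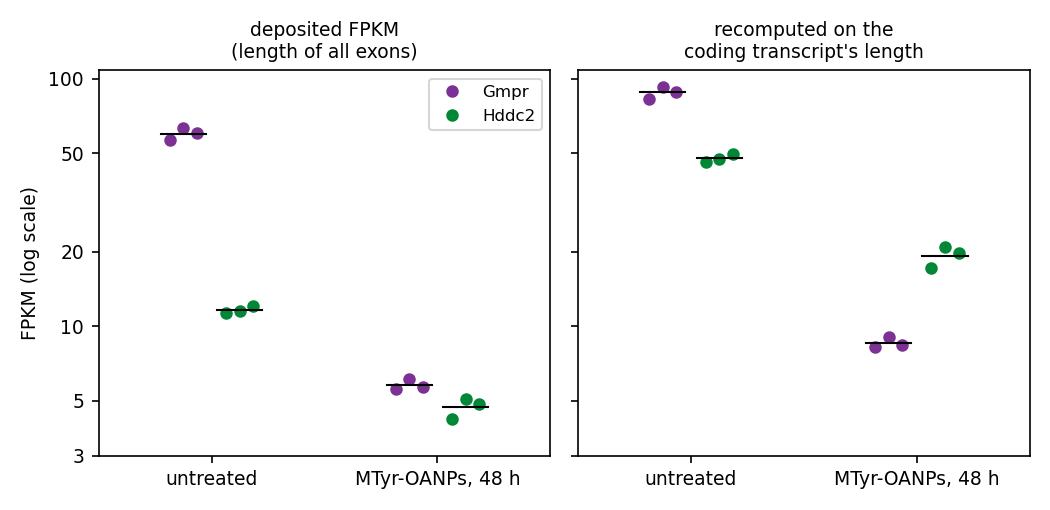
Level of Gmpr and Hddc2 in FPKM (vertical axis, log scale) by group, from the deposited FPKM on the left and with the length of the longest coding transcript on the right. Points are libraries and lines are means; in treated libraries Gmpr is above Hddc2 on the left and below it on the right.

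Annotated neighbours bear on what the counts may hold. Gmpr has 4 annotated transcripts, 2 of them coding. The last exon of its noncoding processed transcript, at 45553426 to 45553800, lies within the long last exon of Atxn1 on the opposite strand, an overlap of 375 bases or 16.1% of Gmpr's exon bases. Neither coding transcript of Gmpr reaches this overlap. Of the 50-base stretches in Gmpr transcripts, 14.4% also occurred in a transcript of another gene, and Atxn1 was that gene in every case, so no such stretch was shared with the paralog Gmpr2. For Hddc2 the shared stretches were 1.8%, all with n-R5s76, an annotated ribosomal RNA gene on the opposite strand inside a retained intron. No source used here says whether counting took account of strand, so Atxn1 reads could have been counted for Gmpr. Their part in the values was not tested, and Atxn1 was not analysed here.

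**Figure D4:**
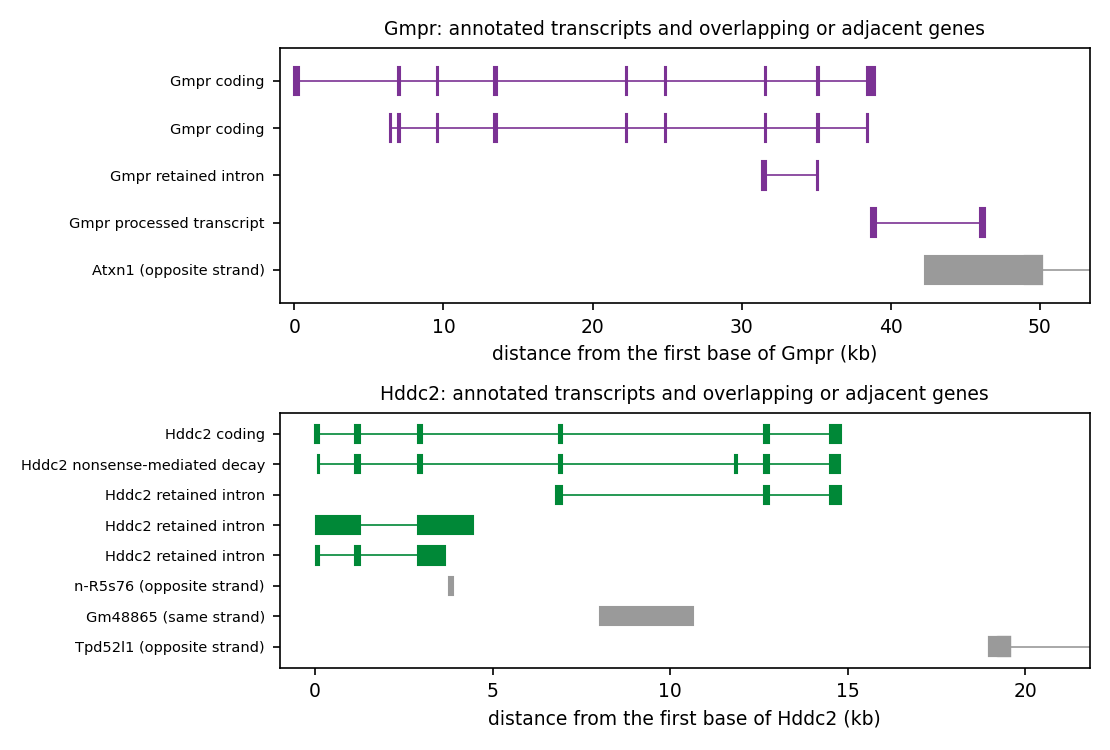
Annotated transcripts (GENCODE M21) of Gmpr and Hddc2 in colour, with boxes for exons, and overlapping or adjacent genes in grey; the horizontal axis is the distance in kb from the first base of each gene. Atxn1 overlaps only the last exon of the processed transcript of Gmpr, and the nearest end of Tpd52l1 lies 4.17 kb beyond Hddc2.

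Of the 99 genes, the one nearest to Hddc2 moved the other way. Tpd52l1, a coiled-coil protein of the tumor protein D52 family, lies on the opposite strand at 31332376 to 31445958 on chromosome 10, with its end facing the end of Hddc2 at a distance of 4.17 kb. Its level was 21.8, 23.0 and 24.4 FPKM in untreated libraries 1, 2 and 3. In treated libraries 1, 2 and 3 it was 32.0, 32.7 and 33.0 FPKM. Every treated library was above every untreated one, and the gene rose 1.41-fold (log2 fold change 0.50, SE 0.05, edgeR adjusted p = 1.2e-06). Tpd52l1 was the only gene of the 99 within 1 Mb of either gene. Gm48865, annotated on the same strand as Hddc2 and between its exons, is nearer but was not analysed here.

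Replicates of Gmpr and Hddc2 were close to one another. The coefficient of variation of Gmpr was 5.60% untreated and 4.89% treated, and that of Hddc2 was 3.39% untreated and 9.73% treated. Counting error alone would give 0.948% and 3.05% for Gmpr and 1.75% and 2.75% for Hddc2, if each count were an independent read. On the log2 scale the SD within groups was 0.08 for Gmpr and 0.11 for Hddc2, against a median of 0.07 over the tested genes. Library 1 was the lowest of its group for both genes in both groups. In treated library 1 Hddc2 was 0.16 below its group's mean on the log2 scale, while the median of the 53 tested genes there was below by less than 0.01. That library was also the shallowest, with a relative depth of 0.850 against 0.971 to 1.07 for the others. Without it the log2 ratio of Hddc2 was -1.23 and that of Gmpr -3.34.

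**Figure D5:**
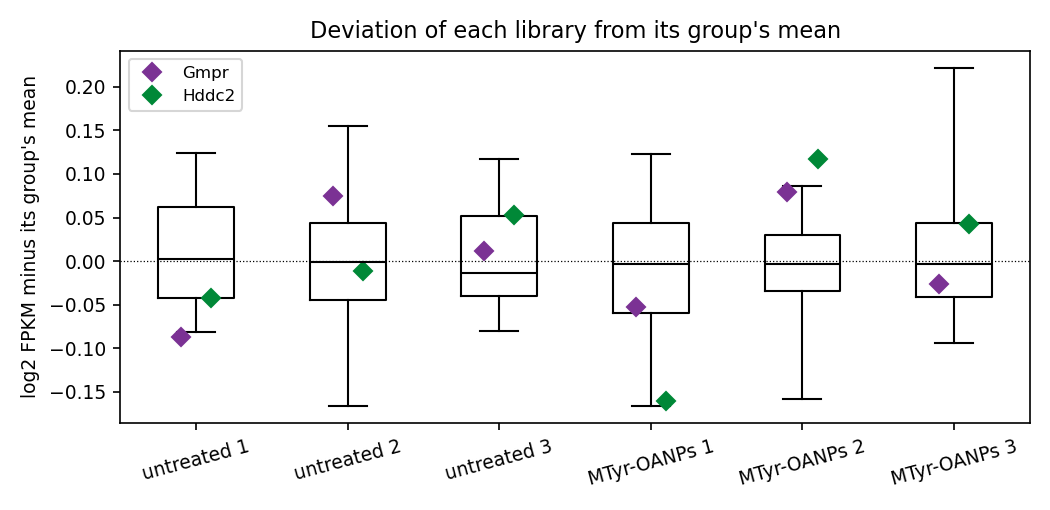
Log2 FPKM minus the mean of its group (vertical axis) in each library (horizontal axis); boxes are the quartiles of the other 51 tested genes with whiskers at the 5th and 95th percentiles, and diamonds are Gmpr and Hddc2. Both genes are below their group's mean in library 1 of each group, whereas the boxes are centred near 0 in every library.

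Profiles over the 6 libraries were compared by the root mean square distance between log2 FPKM, each gene centred on its own mean, so that the size of a change counts as well as its direction. The genes nearest to Hddc2 were Cav2, a caveolin of membrane pits, at 0.08, Cox5a, a subunit of cytochrome c oxidase, at 0.09, and Narf, a nuclear prelamin A binding protein, at 0.13. They lie on chromosomes 6, 9 and 11, and their treated means were lower by 2.58-fold, 2.56-fold and 2.52-fold. The genes nearest to Gmpr were farther off: H19, an imprinted long noncoding RNA with treated counts of only 22 to 31, at 0.44, Arvcf, a catenin of the p120 family, at 0.58, and Tbx2, a T-box repressor known in the melanocyte lineage, at 0.77. Gmpr and Hddc2 were 1.03 apart. That put Hddc2 at place 8 of the 52 genes compared with Gmpr, whose median distance was 1.67. It put Gmpr at place 43 of those compared with Hddc2, whose median distance was 0.68. This measure uses the same difference between groups by which Gmpr and Hddc2 were chosen, so it is a description.

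By deposited FPKM, Tbx2 had an untreated level in the range of that of Gmpr and a higher treated level. Its level was 59.0, 61.7 and 59.2 FPKM in untreated libraries 1, 2 and 3, beside 56.5, 63.1 and 60.4 FPKM for Gmpr. In treated libraries 1, 2 and 3 it was 16.9, 16.1 and 17.1 FPKM. The 2 genes overlapped in deposited FPKM in untreated cells and did not in treated ones. Whether the levels lie as close on another gene length was not tested.

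Other genes of nucleotide metabolism were almost wholly outside the 99 genes. Of 65 gene symbols on lists of purine interconversion, purine synthesis, purine salvage, monophosphate phosphatases, pyrimidine synthesis and deoxynucleotide supply, Gmpr and Hddc2 were the 2 present. The rest, among them the IMP dehydrogenases that oppose GMP reductase, were not analysed here. None of 7 markers of pigment cells (Mitf, Sox10, Pmel, Tyr, Tyrp1, Dct and Mlana) was among the 99 either, so the labelled cell type could not be checked. In the deposited annotation, Gmpr was the only gene with a KEGG entry for purine metabolism, and Hddc2 had no KEGG entry. Of the 9 GO terms of Gmpr and 6 of Hddc2 the genes shared 1, metal ion binding, which 11 of the 53 tested genes carry.

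Genes with other metabolic entries are given here beside the background of all tested genes. Besides Gmpr, 10 tested genes had a KEGG entry for a metabolic map: 5 fell, 2 rose and 3 did not pass edgeR's test. These are 50% lower and 20% higher, beside 45.3% and 37.7% over all 53 genes, so with 10 genes the counts are not read as a result about metabolic genes. Their median log2 ratio was -0.11, against -0.03 over all tested genes. The largest decreases were those of Cox5a, from 68.1 ± 3.65 to 26.6 ± 0.320 FPKM (n = 3 each, ± SD, with an edgeR adjusted p of 4e-18), and of Sdhd, a membrane anchor of succinate dehydrogenase, which fell 1.89-fold (edgeR adjusted p = 7e-16). Dbt, of branched-chain amino acid breakdown, rose 1.79-fold (edgeR adjusted p = 2.5e-11). Atp5pb, a stalk subunit of ATP synthase, rose 1.12-fold (edgeR adjusted p = 9.4e-04). Beside the 10.3-fold difference of Gmpr, the next largest decrease of a gene with such an entry was thus the 2.56-fold one of Cox5a.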

How the data were processed

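Poly(A) RNA of 6 libraries was measured by paired-end sequencing, per the labels' protocols. The authors' deposited table gives whole-number counts per gene and FPKM, per the file headers; a count of 0 is listed as 0.0001 FPKM. The submitters' processing notes name CASAVA 1.4 and mm9, but gene coordinates match GRCm38, which is used here. No source used here gives the aligner, counting tool or strand setting.

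Library sizes were taken from counts divided by FPKM (59 genes with at least 50 counts, deviating by at most 1.62%) and came to 67413468 to 85233002 counts; table totals were 334160 to 421423. Genes with a mean of at least 1 FPKM were tested with edgeR 4.0.16 (R 4.3.3; quasi-likelihood, two-sided, Benjamini-Hochberg over 53 genes, threshold 0.05). Log2 ratios of Gmpr and Hddc2 come from mean FPKM, with SE from log2 FPKM within groups. Alternatives used TMM, DESeq2 1.42.0 and limma 3.58.1. The factors of TMM, DESeq2 and the aligned library medians came from the 53 tested genes only. The fits were checked on simulated data. Replicate libraries differed by more than counting error (chi-square per gene 10.1 to 20.3). Genes named by rule besides Gmpr and Hddc2 were the 3 nearest profiles of each, genes within 1 Mb, and the 2 largest metabolic changes in each direction. Slc22a18 and Tspan32 are named only for the ranking. The genes and lists were chosen with earlier results of these data known. Promoter sequences are from RefSeq; both genes matched.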

Additional observations from a re-analysis of the deposited data

How the results depend on the processing

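Gmpr and Hddc2 were lower after treatment under every alternative run. The log2 ratio of Gmpr, -3.37, was -3.23 under TMM, -3.23 with library medians aligned and -3.16 in limma on log2(FPKM + 1). That of Hddc2, -1.31, was -1.17, -1.17 and -1.15 in the same 3 settings; TMM raised all log2 fold changes by 0.14 and aligned medians by 0.13, and the pseudocount shrinks low values. Leaving out 1 library gave -3.41 to -3.33 for Gmpr, -1.37 to -1.23 for Hddc2 and -2.11 to -2.02 for their difference, which was -2.06. The number of genes called, 44, ran from 35 with a minimum of 5 FPKM (42 tested) to 51 with none (83 tested), and from 40 to 44 without 1 library. Genes called higher and lower, 20 and 24, were 21 and 20 under TMM and 22 and 20 with library medians aligned, so the excess of lower calls rests on the scaling. Both of these scalings were computed from the 53 tested genes alone, 83.0% of which were called in the main fit. Neither was run on the whole transcriptome. The log2 ratio of Gmpr to Hddc2 level was 0.30 in treated cells and -1.17 on the coding transcript's length, and 2.36 and 0.89 in untreated cells; this alternative was added after the data were seen. The 10 other genes named by rule kept direction and call in all 137 values, but not size. In limma on log2(FPKM + 1) H19 was -1.54 against -4.05 and Arvcf -1.47 against -2.22, since the pseudocount shrinks low genes. Deviations of same-numbered libraries correlated at 0.309, 0.397 and -0.00719, and those of different-numbered libraries at -0.399 to 0.131. These values do not settle whether the numbers pair the libraries, and the main fit did not pair them. With the replicate block 45 genes were called and the log2 ratios were -3.37 for Gmpr and -1.31 for Hddc2. With 3 libraries a group, all values rest on the spread of few cultures, and the labels give no batch or vehicle control, so handling and MTyr-OANPs cannot be told apart.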
